A study of Mus musculus with 8 samples.

Results

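In mouse embryonic stem cells, 1341 of the 23972 autosomal 100-kb bins scored in all 8 Hi-C libraries, or 5.59%, had a higher compartment score in both libraries lacking SETDB1 than in both libraries expressing it. These gaining bins were selected on the scores themselves: the lower of the 2 SETDB1-lacking libraries had to exceed the higher of the 2 SETDB1-expressing libraries by at least 0.003. By the mirror rule, 1260 bins, or 5.26%, lost score, and they serve here as the comparison set. One more gaining bin, chr4:112100001-112200000, was scored in the 4 Setdb1 libraries and lacked a score in Suv39h_DKO_UNC, and it is left out below.

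Hi-C measures how often pieces of the genome touch, and the compartment score of a bin is its entry in the first eigenvector of the chromosome's contact map. A positive score marks the A compartment of open, gene-rich chromatin, and a negative score marks the B compartment of closed, lamina-associated chromatin. SETDB1 methylates histone H3 at lysine 9 and is known in embryonic stem cells for silencing endogenous retroviruses and some gene clusters, and it is brought to many of its targets by KRAB zinc finger proteins and TRIM28. SUV39H1 and SUV39H2 methylate the same residue, mainly at pericentromeric satellites and in B compartment chromatin, and G9a and GLP, which UNC0642 inhibits, make most of its dimethylated form.

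The study asked how loss of these enzymes changes genome folding. Replicate Hi-C experiments were made, but the deposited data used here hold 1 score track per group, and whether a track pools the replicates was not stated in the sources used here. Each track is called a library below. Of the 8 libraries, 4 came from 1 conditional knockout clone, #33-6: untreated (Setdb1_WT), 2 uM UNC0642 for 3 days (Setdb1_WT_UNC), 800 nM 4-OHT for 5 days, which deletes Setdb1 (Setdb1_KO), and 800 nM 4-OHT for 2 days followed by 2 uM UNC0642 for 3 days (Setdb1_KO_UNC). The other 4 came from the wild-type line ADF1-26 and the Suv39h1/2 double knockout line ADF157, each untreated or with 2 uM UNC0642 for 3 days (Suv39h_WT, Suv39h_WT_UNC, Suv39h_DKO and Suv39h_DKO_UNC). The untreated Setdb1 control received no 4-OHT, so 4-OHT and SETDB1 loss cannot be told apart, and each Suv39h genotype is 1 line, so line and genotype cannot be told apart either. The SETDB1 protein and expression markers of stem cells were not measured by these files.

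With 1 deposited track per group and a rule built on the 4 Setdb1 libraries, the Setdb1 scores below are a description with no test, and only the 4 Suv39h libraries and the DNA sequence are independent of the choice. Setdb1_WT_UNC stood apart within its line: over all bins its median absolute difference of score from the other Setdb1 libraries was 0.00333 to 0.0039, and that among those 3 was 0.00242 to 0.00257. Setdb1_WT lay above it in 48.4% of all bins, 79.4% of gaining bins and 28.8% of losing bins. Scores are centred at 0 in each chromosome, so the share over all bins says little about a direction. The rule used both libraries, so the shares in gaining and losing bins are a description. Without Setdb1_WT_UNC the rule gave 2517 gaining and 2571 losing bins, and values without this library are given for the shares and counts below that it changed most. The score files carry no read counts, so the reads behind each value cannot be read from them.

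The promoters in these bins ranged from some with no CpG to some with many, and 5 RefSeq promoters (GRCm38.p6, 250 bases before to 50 after the start, 5′ to 3′ on the gene's strand, CG in capitals) show that range. They belong to the regions ranked 1, 2, 3, 6 and 11 among the 12 named below. The choice was not by rank alone, and some regions ranked between these were left out. Tdpoz1 is a member of a TRAF and POZ domain family, and Vmn1r194 is a pheromone receptor. Prmt9 is an arginine methyltransferase, and Slc22a29 is a member of the organic ion transporter family. Net1 is a guanine nucleotide exchange factor for RhoA.
Tdpoz1, chr3:93676234-93676533, minus strand: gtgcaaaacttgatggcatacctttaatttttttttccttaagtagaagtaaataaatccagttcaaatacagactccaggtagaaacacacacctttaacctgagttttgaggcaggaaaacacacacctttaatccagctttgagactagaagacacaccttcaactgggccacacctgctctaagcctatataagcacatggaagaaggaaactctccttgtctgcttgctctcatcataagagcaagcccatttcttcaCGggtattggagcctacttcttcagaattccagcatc
Vmn1r194, chr13:22243965-22244264, plus strand: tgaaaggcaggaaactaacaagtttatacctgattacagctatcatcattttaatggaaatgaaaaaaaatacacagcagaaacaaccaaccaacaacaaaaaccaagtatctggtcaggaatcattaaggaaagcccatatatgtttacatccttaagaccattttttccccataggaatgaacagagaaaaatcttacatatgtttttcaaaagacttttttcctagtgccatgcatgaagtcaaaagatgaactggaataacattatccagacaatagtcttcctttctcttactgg
Prmt9, chr8:77549147-77549446, plus strand: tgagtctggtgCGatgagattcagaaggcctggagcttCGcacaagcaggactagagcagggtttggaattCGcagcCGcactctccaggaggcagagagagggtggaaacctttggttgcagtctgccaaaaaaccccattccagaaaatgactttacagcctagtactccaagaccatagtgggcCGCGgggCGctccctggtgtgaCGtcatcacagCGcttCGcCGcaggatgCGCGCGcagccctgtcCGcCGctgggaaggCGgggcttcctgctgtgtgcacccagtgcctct
Slc22a29, chr19:8218851-8219150, minus strand: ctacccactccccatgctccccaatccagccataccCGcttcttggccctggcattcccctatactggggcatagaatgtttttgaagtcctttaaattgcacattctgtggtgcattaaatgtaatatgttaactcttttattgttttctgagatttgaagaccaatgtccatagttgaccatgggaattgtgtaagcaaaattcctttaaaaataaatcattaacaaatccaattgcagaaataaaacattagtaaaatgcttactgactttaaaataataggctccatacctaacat
Net1, chr13:3918171-3918470, minus strand: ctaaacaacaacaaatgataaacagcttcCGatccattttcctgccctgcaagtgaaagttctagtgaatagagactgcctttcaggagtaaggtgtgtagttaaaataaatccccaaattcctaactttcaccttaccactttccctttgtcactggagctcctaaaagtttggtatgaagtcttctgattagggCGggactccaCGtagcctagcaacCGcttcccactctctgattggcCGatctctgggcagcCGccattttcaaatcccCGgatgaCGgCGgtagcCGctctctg

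The Vmn1r194 promoter held 0 CG and the Tdpoz1 and Slc22a29 promoters held 1 each, while Net1 held 10 and Prmt9 held 17. Over the 867 of 1183 protein-coding genes starting in gaining bins that matched a promoter, the median was 5 CG, against 15 over all 15648 matched promoters and 15 over 505 promoters in losing bins. At most 3 CG were found in 43.9% of the promoters in gaining bins, 20.4% of those in losing bins and 22.8% of all. The motif TATAAA, searched on both strands, was present in 22.4% of promoters in gaining bins, 13.3% in losing bins and 12.9% of all. Among promoters in bins that were B in Suv39h_WT the medians were 2 CG for 442 promoters in gaining bins and 3 CG for all 4000, and in A bins they were 12 CG for 425 and 18 CG for all 11648. Leaving out the vomeronasal, olfactory and Zfp families, the median was 8 CG in gaining bins and 17 CG over all such genes.

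In the gaining bins the mean score was -0.00267 in Setdb1_WT, -0.00766 in Setdb1_WT_UNC, 0.00413 in Setdb1_KO and 0.00443 in Setdb1_KO_UNC. The SDs across bins lay between 0.0219 and 0.0224 in these 4 libraries, so the shift was small beside the range of scores from B to A. The share of gaining bins in A was 43.1% in Setdb1_WT, 33.9% in Setdb1_WT_UNC, 53.1% in Setdb1_KO and 53.2% in Setdb1_KO_UNC. Over all bins it was 44.5% in Setdb1_WT and at most 44.7% in the other Setdb1 libraries, so the share in Setdb1_WT was close to that of the genome. In the Suv39h libraries, which the rule did not use, 37.5 to 38.9% of gaining bins were in A. Of all bins, 44.8 to 46.3% were in A there, so gaining bins lay more often in B. The median rise from Setdb1_WT to Setdb1_KO was 0.00601, and from Setdb1_WT_UNC to Setdb1_KO_UNC it was 0.01.

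**Figure D1:**
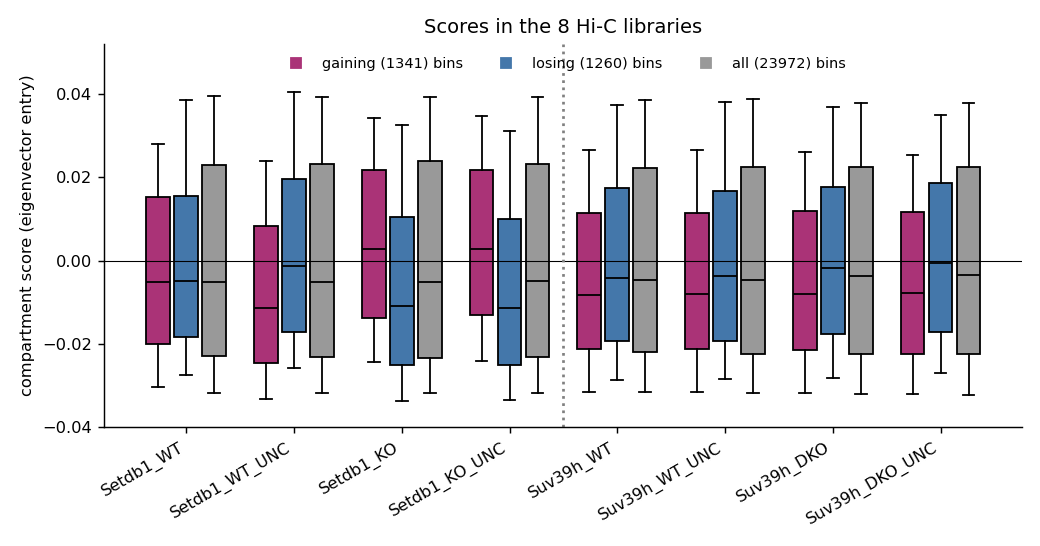
Compartment scores of the 1341 gaining, 1260 losing and 23972 scored bins in the 8 libraries; boxes span the quartiles with the median as a line, and whiskers run from the 10th to the 90th percentile of bins. Gaining bins lie higher in the SETDB1-lacking libraries, as the rule requires, and their 4 Suv39h medians lie close together between -0.00817 and -0.00782.

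Most gaining bins kept their compartment. In 603 bins, or 45.0%, all 4 Setdb1 libraries were B, and in 449 bins, or 33.5%, all were A. A clean change from B in both SETDB1-expressing libraries to A in both lacking libraries was seen in 104 bins, or 7.76%, and 78 of these, or 75%, were B in all 4 Suv39h libraries, as were 56.7% of all gaining bins and 50.4% of all bins. A further 129 bins, or 9.62%, were A in 3 libraries and B only in Setdb1_WT_UNC. Comparing the untreated pair alone, 134 gaining bins, or 9.99%, went from B to A and 0 went from A to B, a direction that the rule fixes. The share from B to A was 8.26% without Setdb1_WT_UNC, 4.22% without Setdb1_WT, 4.94% without Setdb1_KO and 8.39% without Setdb1_KO_UNC. With larger margins it was higher, at 15.2% for 0.005 and 34.7% for 0.01.

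The margins were small, with a median of 0.00471 and a maximum of 0.0187. Just inside the threshold, chr1:60500001-60600000 had a margin of 0.003, and just outside it, chr8:4500001-4600000 had 0.002999. There were 448 bins, or 33.4%, with a margin under 0.004, and 72 with at least 0.01. At 0.01 the losing rule found 10 bins.

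The starting score of the gaining bins was read in Suv39h_WT, which the rule did not use. The share of bins gaining was 7.91% where Suv39h_WT lay between -0.01 and 0, and 1.73% where it was 0.04 or more. The lowest shares were on the A side, and in the deepest B bins, with Suv39h_WT below -0.04, 6.33% gained. Next to a change of compartment in Suv39h_WT, 8.34% of bins gained, against 4.06% of bins more than 10 bins away. Losing bins followed the border as well, at 6.81% and 3.43%.

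The 4 Suv39h libraries showed no common shift of the gaining bins with SUV39H1/2 loss. The mean score was -0.00494 in Suv39h_WT, -0.00495 in Suv39h_WT_UNC, -0.00488 in Suv39h_DKO and -0.0055 in Suv39h_DKO_UNC. These means overlapped closely, and the median change with SUV39H1/2 loss was 0.000146 without UNC0642 and -0.000352 with it. By the same rule applied to SUV39H1/2 loss, 87 gaining bins, or 6.49%, also rose, where 6.41% of all bins did, and 94, or 7.01%, fell, where 5.93% of all bins did. The 87 shared bins were 5.66% of all bins that rose with SUV39H1/2 loss.

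In limma, fitted to the 4 Suv39h libraries over all 23972 bins with genotype and UNC0642 as terms, 0 gaining bins passed an adjusted p of 0.05 for SUV39H1/2 loss (0% of all bins), and the lowest adjusted p among them was 0.295. For UNC0642 in these lines 0 gaining bins passed (0% of all bins), with a lowest adjusted p of 0.302. At an unadjusted p under 0.05, 78 gaining bins, or 5.82%, rose with SUV39H1/2 loss (4.73% of all bins) and 100, or 7.46%, fell (4.93% of all bins). For UNC0642, 53, or 3.95%, rose (2.87% of all bins) and 65, or 4.85%, fell (3.22% of all bins). The fit had 1 residual degree of freedom.

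Set beside the Suv39h lines, the gaining bins scored higher in the SETDB1-lacking libraries than in every Suv39h library in most cases. Both lay above all 4 Suv39h libraries in 898 gaining bins, or 67.0%, where 17.5% of all bins did. Both SETDB1-expressing libraries lay below all 4 Suv39h libraries in 211 gaining bins, or 15.7% (10.4% of all bins), and above all 4 in 126, or 9.4% (10.7% of all bins). The rule used the Setdb1 side of these comparisons, and the lines also differ in their origin, so the counts are a description.

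Around the gaining bins the difference was largest at the bin itself, where the rule requires it, and 24.5% of the neighbouring bins were gaining bins too. The mean Setdb1_KO score was 0.00413 in the bin itself, 0.00188 in the bin to its left and 0.0015 in the bin to its right, and Setdb1_WT scored -0.00267, -0.000221 and -0.000628. At 1000 kb to the left Setdb1_KO scored -0.000687 and Setdb1_WT -0.00137. Setdb1_WT_UNC stayed below Setdb1_WT across these positions, at -0.00606 beside the bin and -0.004 at 1000 kb.

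**Figure D2:**
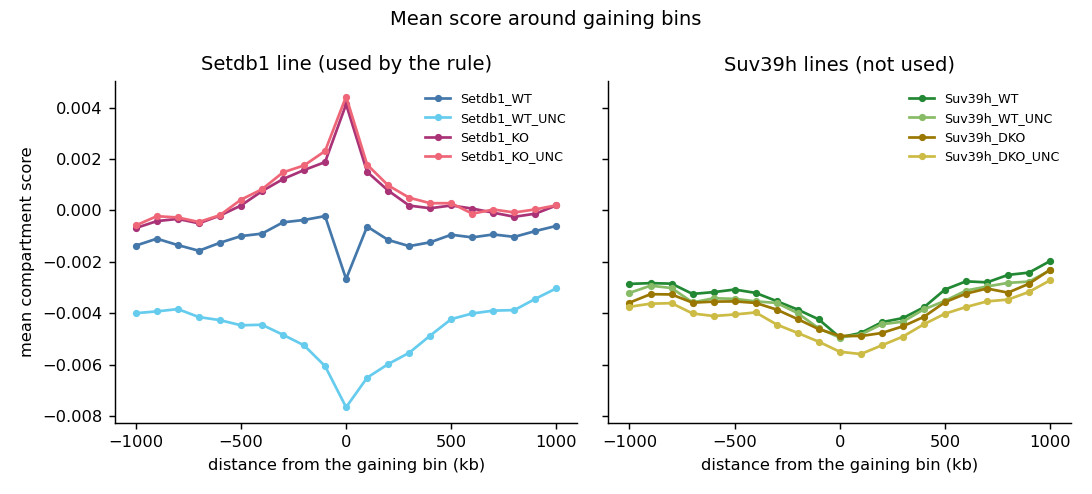
Mean compartment score by distance from the gaining bin in kb, for the 4 Setdb1 libraries on the left and the 4 Suv39h libraries on the right, each line 1 library. Setdb1_KO and Setdb1_KO_UNC peak at distance 0 with 0.00413 and 0.00443, where Setdb1_WT dips to -0.00267, as the choice of bins requires; the Suv39h libraries, which the rule did not use, lie between -0.0055 and -0.00488 there.

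Gaining bins lay close to each other. They formed 1014 runs, of which 800 were single bins and 214 held at least 2 adjacent bins, and these 214 runs held 541 bins, or 40.3%. Losing bins also lay in runs, with 148 runs of at least 2 bins holding 26.7% of them. The share of gaining bins in such runs depended on the libraries used: it was 33.8% (346 runs) without Setdb1_WT_UNC, 72.2% (855 runs) without Setdb1_WT, 50.1% (580 runs) without Setdb1_KO and 46.7% (466 runs) without Setdb1_KO_UNC. A gaining bin had on average 3.2 other gaining bins within 1 Mb, and a bin of any kind had 1.1. Of 1184 windows of 2 Mb, 641 held no gaining bin and 43 held 6 or more, and the densest, chr9:6000001-8000000, had 12 gaining and 0 losing bins among 20. Neighbouring bins share contacts, so they are not independent observations.

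Near the start of the chromosome, next to the centromere in mouse, the share of gaining bins was higher over all chromosomes together. In the first 10 Mb scored, 210 of 1889 bins gained, or 11.1%, and 3.71% lost. The share was 38% on chromosome 18, 29% on chromosome 9, 21% on chromosome 13 and 13.1% on chromosome 19. Over the remaining chromosomes, with 14 among them, it was 7.32%. Chromosome 14 went the other way, with 4.26% gaining and 7.45% losing. The share in the first 10 Mb was 15.6% without Setdb1_WT_UNC (10.5% over all bins), 34.6% without Setdb1_WT (19% over all bins) and 22% without Setdb1_KO (13.2% over all bins). By chromosome the share of gaining bins ran from 1.97% on chromosome 2 to 9.97% on chromosome 13, and the share of losing bins there was 2.48% and 10.6%.

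Gaining bins were rich in repeats. A median of 40.7% of their bases was repeat-masked in the reference (lower-case sequence, all repeat classes together), against 26.0% in losing bins and 31.7% over all bins. Among bins in A in Suv39h_WT the medians were 33.8% for gaining, 23.8% for losing and 27.5% for all, and among B bins they were 45.2%, 28.8% and 36.9%. When bins were ordered by their repeat-masked share and divided into 5 equal groups, 1.63, 3.02, 4.34, 6.4 and 12.6% gained from the lowest to the highest, while 9.95, 6.84, 4.51, 3.0 and 1.98% lost.

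Without Setdb1_WT_UNC the same 5 groups gained at 6.88, 8.82, 8.87, 11.1 and 16.9%, so the order held with a smaller spread. Setdb1_WT_UNC itself moved with the repeats: its median difference from Setdb1_WT was 0.0027 in the lowest group and -0.00173 in the highest. From the lowest to the highest group the median difference of Setdb1_KO from Setdb1_WT was -0.000344, -0.000407, -0.000405, -0.000158 and 0.000794. That of Setdb1_KO_UNC from Setdb1_WT_UNC was -0.00369 in the lowest and 0.00244 in the highest. For SUV39H1/2 loss without UNC0642 the medians were 0.00073 in the lowest group and -0.000507 in the highest, the opposite order of the end groups. Bins that rose with SUV39H1/2 loss had a median repeat-masked share of 28.2%. GATC sites, which DpnII cuts to make the Hi-C fragments, stood at a median of 2.59 per kb in gaining bins, 2.43 in losing bins and 2.47 over all bins, and their part in the result was not tested.

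**Figure D3:**
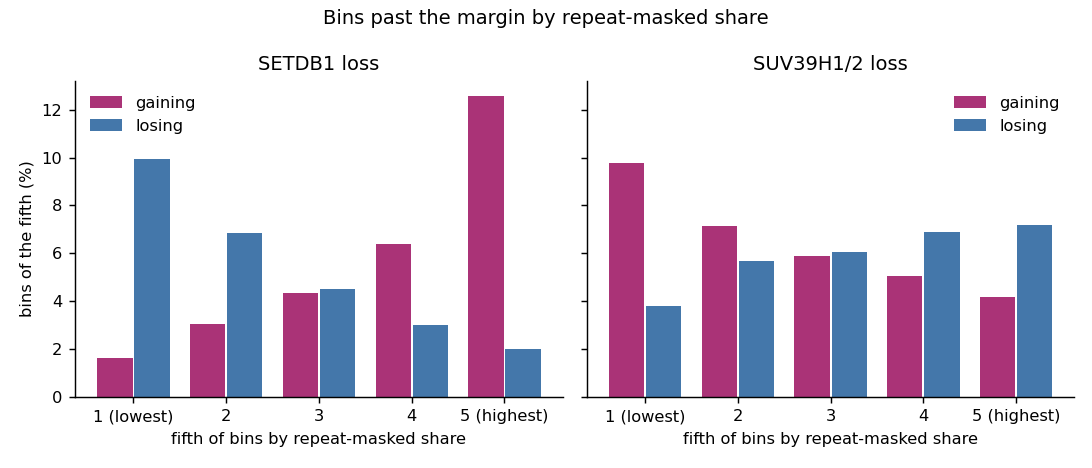
Percent of bins that gained or lost at least 0.003 with SETDB1 loss (left) and with SUV39H1/2 loss by the same rule (right), in 5 equal groups of bins ordered by repeat-masked share. With SETDB1 loss the gaining share climbs from 1.63 to 12.6% and the losing share falls from 9.95 to 1.98%.

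Over all gaining bins together, the share with a gene was near that of the genome. A protein-coding gene overlapped 64.4% of gaining bins and 64.7% of all bins, and one started in 45.9% and 41.9%. The compartments differed: bins in B in Suv39h_WT held a mean of 0.693 gene starts when gaining and 0.403 over all, and bins in A held 1.2 and 1.43. A pseudogene started in 43.9% of gaining bins, against 24.4% of losing bins and 31.8% of all, and a lncRNA in 24.5%, 31.0% and 28.8%. At the level of genes, 1183 of 20713 protein-coding genes, or 5.71%, started in a gaining bin, and this is the share against which the gene families below are read. In losing bins it was 3.53% of them, and in bins rising with SUV39H1/2 loss 5.17%. Members of a family often share a bin, so their counts are not independent.

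Clustered receptor families were over that share. Of 199 vomeronasal type 1 receptor genes, which encode pheromone receptors, 54 started in gaining bins, or 27.1%, and 2.51% in losing bins; the 54 genes lay in 20 bins. Olfactory receptor genes did so in 135 of 1128 cases, or 12%, and 1.6% lay in losing bins. For vomeronasal type 2 receptors it was 16 of 119, or 13.4%. Without Setdb1_WT_UNC these shares were 33.2%, 15.2% and 22.7%, with 9.69% of all protein-coding genes. Without Setdb1_WT they were 43.7%, 32.1% and 37%, with 22% of all, and without Setdb1_KO 38.7%, 21.7% and 26.9%, with 14%.

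Of 380 Zfp zinc finger genes, many of which encode KRAB repressors of retroviruses, 42 started in gaining bins, or 11.1%, and 2.63% in losing bins. Zfp322a had the values 0.0295 in Setdb1_WT, 0.00191 in Setdb1_WT_UNC, 0.0398 in Setdb1_KO and 0.0427 in Setdb1_KO_UNC. Its bin scored between 0.00932 and 0.0108 in the 4 Suv39h libraries, above Setdb1_WT_UNC and below the other 3. The Zfp share was 13.2% without Setdb1_WT_UNC (9.69% of all protein-coding genes), 40.3% without Setdb1_WT (22%) and 24.2% without Setdb1_KO (14%).

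Genes active at the 2-cell stage, which SETDB1 is known to help silence in stem cells, started in gaining bins in 9 of 38 cases, or 23.7%, and in bins rising with SUV39H1/2 loss in 15.8%. They were Zfp352, Duxf3, Gm20767, Zscan4d and Tdpoz1 to Tdpoz5. Zfp352, a zinc finger gene of the 2-cell embryo, scored -0.0181 in Setdb1_WT, -0.0294 in Setdb1_WT_UNC, -0.0067 in Setdb1_KO and -0.00745 in Setdb1_KO_UNC, and between -0.0276 and -0.0248 in the Suv39h libraries. Duxf3, whose family encodes activators of the 2-cell programme, scored 0.00705, 0.00651, 0.0196 and 0.0161 in the same order of Setdb1 libraries. Zfp352 stayed in B throughout, and Duxf3 was in A throughout those 4 libraries. Without Setdb1_WT_UNC the share was 23.7% too, but that of all protein-coding genes rose from 5.71% to 9.69%. Without Setdb1_WT it was 44.7%, with 22% of all.

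Among smaller families, 5 of 6 stefin A genes, which encode cysteine protease inhibitors, lay in 3 gaining bins (Csta1, Stfa2l1, Stfa1, Stfa2 and Stfa3), and Stfa1 scored 0.0216, 0.00405, 0.0416 and 0.0321 from Setdb1_WT to Setdb1_KO_UNC and -0.0125 to -0.00614 in the Suv39h libraries. The other stefin bins lay differently: the bin of Csta1 and Stfa2l1 scored 0.0312 in Setdb1_WT, 0.0445 in Setdb1_KO and 0.0325 to 0.0413 in the Suv39h libraries. The bin of Stfa2 and Stfa3 scored 0.00575 in Setdb1_WT and 0.0105 in Setdb1_KO, and 0.0243 in Suv39h_WT. Of 57 clustered protocadherins, which encode neuronal adhesion proteins, 17 lay in 3 gaining bins, or 29.8%, with Pcdha1 to Pcdha9 in 1 of them. Of 49 Cyp2 cytochrome genes, 13 gained, or 26.5%, and Cyp2c37 scored -0.0176, -0.0363, -0.00576 and 0.000878. Of 51 imprinted genes, 10 lay in gaining bins, or 19.6%, among them Ndn, Magel2 and Igf2r, and 0% passed a margin of 0.005. Without Setdb1_WT_UNC the shares were 35.1% of protocadherins, 34.7% of Cyp2 cytochromes and 27.5% of imprinted genes, with 9.69% of all protein-coding genes. Without Setdb1_WT they were 77.2%, 61.2% and 43.1%, with 22% of all.

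The other lists lay nearer to 5.71% or under it, and several changed sides with the libraries used. Of 64 defensin genes 7 lay in gaining bins, or 10.9%, with Defa21, Defa23 and Defa35 in the bin of largest margin. Of 60 serpins 5 did, or 8.33%: Serpinb9, Serpinb9b, Serpinb1b, Serpinb9f and Serpinb6e, which lie on chromosome 13. Of 82 ribosomal protein genes 7 did, or 8.54%, led by Rpl15, Rps27a and Rpl5. Keratins and keratin-associated proteins lay in gaining bins in 2.7% and in losing bins in 9.91% of 111 genes, and the 3 in gaining bins were Krtap5-1, Krtap5-3 and Krtap5-5. Of 21 core pluripotency genes 1 did, Dppa3, of 28 lineage regulators 1, Pdx1, and of 30 germline genes silenced by H3K9 methylation 1, Mael. No gene of 67 histone cluster genes, 39 Hox genes or 27 H3K9 methyltransferases, partners and HP1 proteins lay in a gaining bin, a count of 0. These counts turned on single libraries. Without Setdb1_WT_UNC, with 9.69% of all protein-coding genes, the share was 13.5% of keratins and keratin-associated proteins, 20% of the germline genes and 12.8% of Hox genes. Without Setdb1_WT the histone cluster, Hox and H3K9 lists were 77.6%, 28.2% and 29.6%, with 22% of all protein-coding genes, and without Setdb1_KO 56.7%, 10.3% and 3.7%, with 14%.

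**Figure D4:**
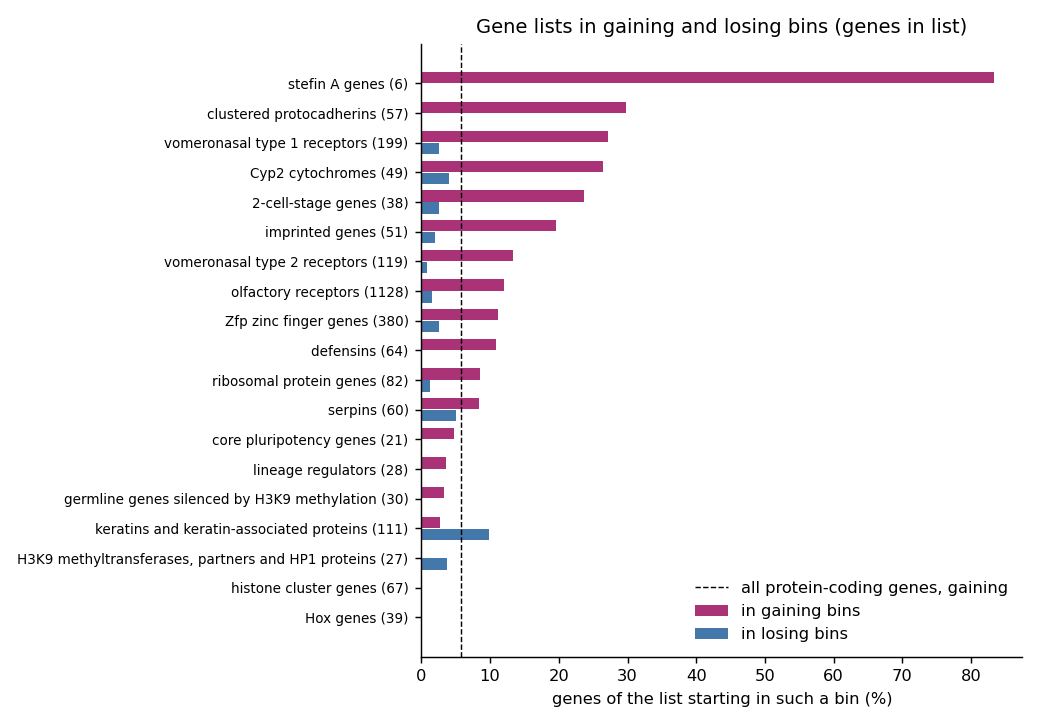
Percent of the genes of each of 19 lists that start in a gaining or a losing bin, with the number of genes in brackets and the share of all protein-coding genes in gaining bins, 5.71%, as a dashed line. Stefin A genes, protocadherins, vomeronasal receptors, Cyp2 cytochromes, 2-cell-stage and imprinted genes extend furthest past the line.

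The longest run, chr3:93600001-94300000, covered 7 bins and 13 protein-coding genes, Tdpoz1 to Tdpoz5 among them. Its mean score was -0.00621 in Setdb1_WT, -0.0215 in Setdb1_WT_UNC, 0.00349 in Setdb1_KO and 0.00356 in Setdb1_KO_UNC. In the Suv39h libraries it was -0.0139, -0.0168, -0.00908 and -0.0157, in the order wild type, wild type with UNC0642, double knockout and double knockout with UNC0642. The run averages of the SETDB1-lacking libraries were above 0 and those of the other 6 below it. The average hides its bins: Setdb1_WT was above 0 in the bins of Tdpoz1, Tdpoz4 and Tdpoz3, at 0.00752, 0.0054 and 0.0103, and the bin of Tdpoz5 scored -0.0421 in Setdb1_WT and -0.0347 in Setdb1_KO, in B in both. The lowest adjusted p for SUV39H1/2 loss over its bins was 0.393 in limma. Tdpoz1 and its CpG-poor promoter shown above lie here, in a bin with a margin of 0.00365.

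Among the 6 longest runs the largest mean margin, 0.0116, was that of chr13:22100001-22700000, which covered 6 bins and 17 genes from Vmn1r189 to Vmn1r206. Its mean score was -0.00405, -0.0143, 0.01 and 0.00837 from Setdb1_WT to Setdb1_KO_UNC. The Suv39h libraries lay between -0.0175 and -0.0123, below 3 of the 4 Setdb1 libraries. The largest margin of all gaining bins, 0.0187, belonged to the bin with Vmn1r197 to Vmn1r200. To the left of the run, chr13:22000001-22100000 missed the threshold with a margin of 0.00273. Repeats made up 49.5% of the run and 51.0% of the Tdpoz run.

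**Figure D5:**
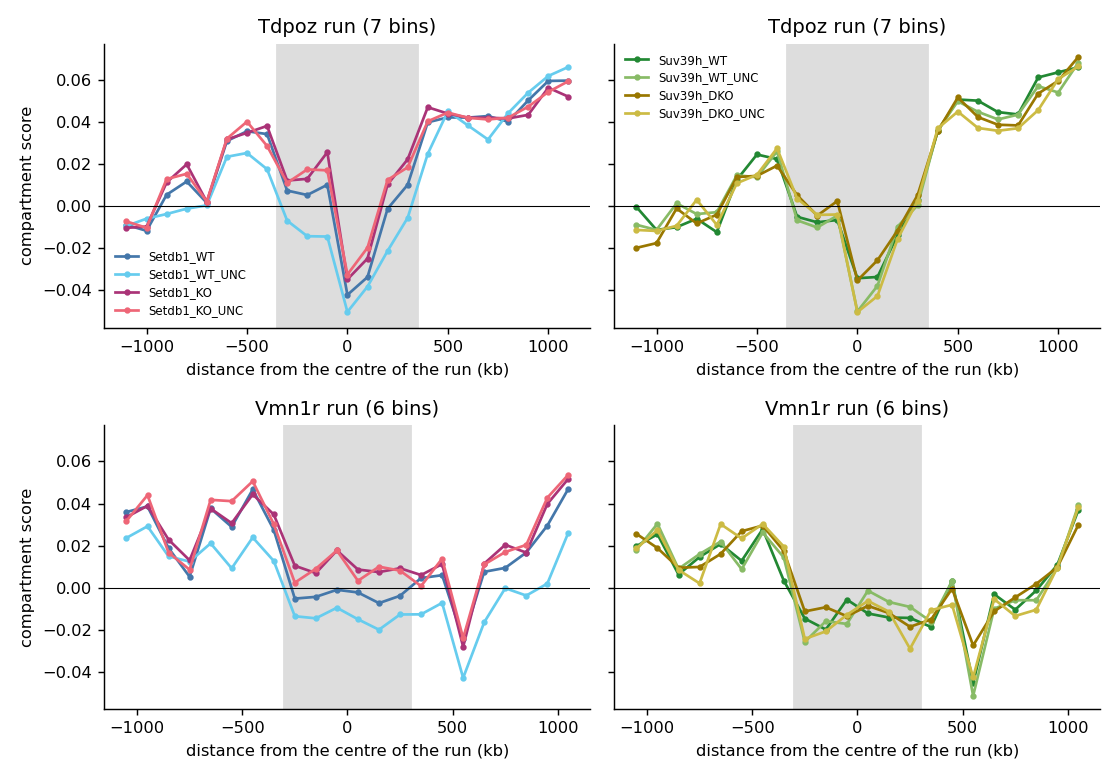
Compartment score by distance in kb from the centre of the Tdpoz run (top) and the Vmn1r run (bottom), for the 4 Setdb1 libraries on the left and the 4 Suv39h libraries on the right; grey marks the run. In the Vmn1r run Setdb1_KO and Setdb1_KO_UNC average 0.01 and 0.00837, above the other 6 libraries.

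Starting compartments varied among the next 4 runs. The run chr8:77500001-78100000, with Arhgap10, Prmt9, Tmem184c and Ednra, the endothelin A receptor gene, averaged 0.00648, -0.00389, 0.0163 and 0.0157 in the Setdb1 libraries and -0.0032 to -0.000261 in the Suv39h libraries. The run chr18:74100001-74700000, with Ska1, Cxxc1 and Mbd1, which encodes a methyl-CpG binding protein, and Cfap53, averaged 0.0306, 0.0177, 0.0389 and 0.0389, so each of these averages was in A. The run chr9:6200001-6800000, with Pdgfd, a growth factor gene, and Ddi1, averaged -0.0106, -0.018, -0.0032 and -0.000895, and 2 of its 6 bins were above 0 in both SETDB1-lacking libraries. The run chr19:8200001-8700000, with the transporter genes Slc22a29, Slc22a30, Slc22a8 and Slc22a6, averaged -0.00882, -0.0241, 0.00144 and 0.000134.

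Of the 6 bins with the largest margins outside these runs, each taken alone although some had a gaining neighbour, 3 overlapped no protein-coding gene. The bin chr18:9800001-9900000, which overlaps the end of Colec12, a collectin gene that starts before it, scored 0.019, -0.000834, 0.0369 and 0.0383. The bin chr9:19100001-19200000 with Olfr836, Olfr837 and Olfr839-ps1 scored -0.0135, -0.0245, 0.00482 and 0.00119. The bin chr13:3900001-4000000 with Net1, Tubal3 and Ucn3 scored 0.00358, 0.00367, 0.0176 and 0.0178, and 0.000707 to 0.00626 in the Suv39h libraries. Here both SETDB1-expressing libraries were close to each other and to the Suv39h range.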

How the data were processed

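Hi-C libraries cut with DpnII were aligned by the authors to mm10 in a 4DN pipeline and filtered on mapping quality. The deposited values are compartment scores per 100-kb bin, computed by the authors with Juicer from KR-normalized intrachromosomal maps and centred at 0 in each chromosome. The score has no unit, and it is relative to each chromosome. From there, bins scored in all 8 libraries were kept. Members and gene lists were chosen with earlier results of these data known. Suv39h scores were tested with limma 3.58.1 in R 4.3.3 (Benjamini-Hochberg adjustment), a design tested on simulated data whose changes were larger than the rises of the gaining bins, which it recovered with more false calls than the adjusted threshold allows, and the rest was computed in Python 3.11.15. Since 1 deposited track stands for each group, p-values measure only the spread among 4 libraries. Repeat-masked share, GC and GATC sites came from GRCm38, gene starts from GENCODE and promoters from RefSeq (GRCm38.p6). Named regions were the 6 longest runs (ties, such as the 6 runs of 5 bins, by larger mean margin) and the 6 bins of largest margin outside them, taken singly, with up to 4 protein-coding genes each, and list genes were named where a list had at most 6 in gaining bins, otherwise from the bins of largest margin. The other genes of the 2-cell list and the protocadherins were named after their values were seen. Alternatives were other scalings, margins, 500-kb means, leaving out libraries and other limma designs.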

Additional observations from a re-analysis of the deposited data

How the results depend on the processing

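The number of gaining bins stayed between 1302 and 1373 under 6 scalings, one of them, by chromosome length, chosen after seeing the data, and 91.5 to 99.1% of the bins were shared. It was 610 at a margin of 0.005, 72 at 0.01 and 179 of 4759 windows as means of 500 kb, and leaving out 1 Setdb1 library gave 2517 to 4552 because the rule then asks less. The share in A in Setdb1_WT was 39.9% with quantile normalization, 50.7% after adding the implied mean, 35.4% after subtracting it and 59.2% with GC content removed, which also gave 15.6% for B to A. These settings shift the scores of all bins, and the share of all bins in A under them is not given here. The moves therefore cannot be called particular to gaining bins. For the median change with SUV39H1/2 loss, adding the mean gave 0.000402 and subtracting it gave -0.000569. The share rising with SUV39H1/2 loss by the same rule was 2.54% at 0.005 (2.36% of all bins), 17.7% at 0 (20.6%) and 5.0% with the mean subtracted (5.38%). The share falling was 3.65% (2.35%), 19.8% (19.3%) and, with the mean added, 5.67% (5.0%). Counting gene starts instead of overlaps gave 45.9% of bins with a protein-coding gene. With the mean subtracted limma called 44 bins for SUV39H1/2 loss and 29 for UNC0642, and leaving out 1 Suv39h library, with the other factor dropped, it called 0 to 131 and 0 to 5; without Suv39h_WT_UNC it was 131. The 12 named regions kept Setdb1_KO libraries above Setdb1_WT libraries under all scalings, also chosen after seeing the data. The regions were picked on these same scores for long runs or large margins, so their order gives no independent support. The tracks carry no read counts, so what depth limits was not tested.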
